A study of Mus musculus with 4 samples.

Results

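Semaphorins, plexins and neuropilins are the ligands and receptors of a guidance system that was first described in growing axons and that also acts on blood vessels, immune cells and bone. The genes were taken by name: every gene with the symbol of a class 3 to 7 semaphorin or of a plexin A to D, plus Nrp1, Nrp2, Plxdc1 and Plxdc2. This gave 33 of the 22180 genes with a probe set of 1 gene symbol on the array, made up of 20 semaphorins, 9 plexins, 2 neuropilins and the 2 plexin domain containing genes. Expression was measured in skeletal stem cells from Mmp14-/- (knockout) and Mmp14+/+ (wild-type) mice, 4 to 6 weeks old, after 48 h inside a 3D collagen gel. Each group had 2 arrays, and the aim stated for the comparison was a screen for transcriptional changes. The labels do not give the deleted region of Mmp14. They do not state either whether the arrays of a group stand for different animals or dishes, so a p-value here measures only the spread between these arrays, which may be technical. Arrays are called 1 and 2 by the replicate number in their labels.

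A semaphorin on one cell, or released by it, binds a plexin on another, and the plexin then switches off small GTPases of the Rap and R-Ras type or recruits activators of RhoA, which changes adhesion and the actin cytoskeleton. Class 3 semaphorins are secreted and, apart from Sema3e, need a neuropilin to hold them to a plexin. Classes 4 to 6 span the membrane, and Sema7a is tied to it by a lipid anchor. In mouse bone, Sema3a made by osteoblast lineage cells favours bone formation, and Sema4d made by osteoclasts restrains osteoblasts through plexin B1. Mmp14 encodes MT1-MMP, the membrane-anchored collagenase that the knockout removes, and in human tumour cells this protease releases Sema4d from the cell surface.

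Mmp14 had log2 intensities of 5.77 and 5.84 in knockout arrays and of 8.77 and 8.83 in wild-type arrays. It fell in knockout cells (limma adjusted p = 0.000278, difference −2.99 log2 with SE 0.103, 2 arrays per group). Of 13 skeletal stem and stromal markers, 12 were above the level set for testing, and Gli1 was not. Of the 12, 4 were called higher, among them Pdgfra (1.77) and Cxcl12 (1.81), and Lepr (−2.26) was called lower. The summed marker signal was 12.0 to 12.1 log2 in knockout and 11.8 log2 in both wild-type arrays. Over all tested genes 6.2% were called higher and 5.12% lower. The marker lists that follow are small, so their counts are given as a description. Of 7 endothelial markers only Vwf was tested, and the summed signal was 4.73 to 4.82 in knockout and 4.68 to 4.80 in wild type. Of 7 macrophage and leukocyte markers 3 were tested and none was called, with a summed signal of 5.58 to 5.74 in knockout and 5.68 to 5.83 in wild type. All 4 lymphocyte markers were below the level set for testing. Of 5 osteoclast markers 2 were tested and none was called (7.52 to 7.55 in knockout and 7.66 to 7.86 in wild type). That sum was mostly Nfatc1, with group means of 7.16 log2 in knockout and 7.31 in wild type. Acp5 had 4.98 and 5.53, and Calcr, Ocstamp and Dcstamp were below the level set for testing. Of 5 pericyte and smooth muscle markers Mcam was higher (0.69) and Rgs5 lower (−1.07), with a summed signal of 7.32 to 7.46 in knockout and 7.13 to 7.22 in wild type. Of the 5 Schwann and neural markers, Sox10 and Nefl were below the level set for testing. Of the other 3, Ncam1 was lower (−0.81), while S100b (1.02, adjusted p = 0.0604) and Tubb3 (−0.28, adjusted p = 0.43) were not called by limma. The summed signal of the 5 was 7.91 to 8.06 in knockout and 8.52 to 8.70 in wild type. It was mostly Ncam1, with group means of 7.67 log2 in knockout and 8.48 in wild type. The X-inactivation transcript Xist differed by 0.73 log2 and the Y-linked Eif2s3y by −0.69. The Y-linked Kdm5d (−0.42, limma adjusted p = 0.104) and Uty (−0.25, adjusted p = 0.52) were not called. The part of these markers and transcripts in the results was not tested. In bulk RNA, fewer cells of a type and less RNA per cell cannot be told apart.

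Of the 33 genes, 27 had a mean of at least 2.34 log2, the level set for testing, and none of these 27 had a group mean below it. Among them 8 were called higher in knockout, 6 lower and 13 not called, with a call meaning a limma adjusted p below 0.05 over all 12708 genes tested. In all tested genes 11.3% were called in either direction, 6.2% higher and 5.12% lower, against 51.9%, 29.6% and 22.2% of these 27. Of the 14 called, 8 differed at least 2-fold, as did 3.51% of all tested genes. With no filter on dim genes 12 of the 33 were called, against 5.07% of all 22180 genes. The median size of change, whatever its sign, was 0.59 log2 in the 27 genes and 0.18 log2 in all tested genes, and the signed medians were 0.13 and −0.0041 log2. Knockout and wild-type arrays did not overlap in 24 of the 27, against 57.8% of all tested genes, and the 3 with overlap were Sema5a, Sema5b and Sema6c. Both directions appeared in the ligands and in the receptors: 5 semaphorins were called higher and 2 lower, while 3 plexins were called higher and 3 lower.

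**Figure D1:**
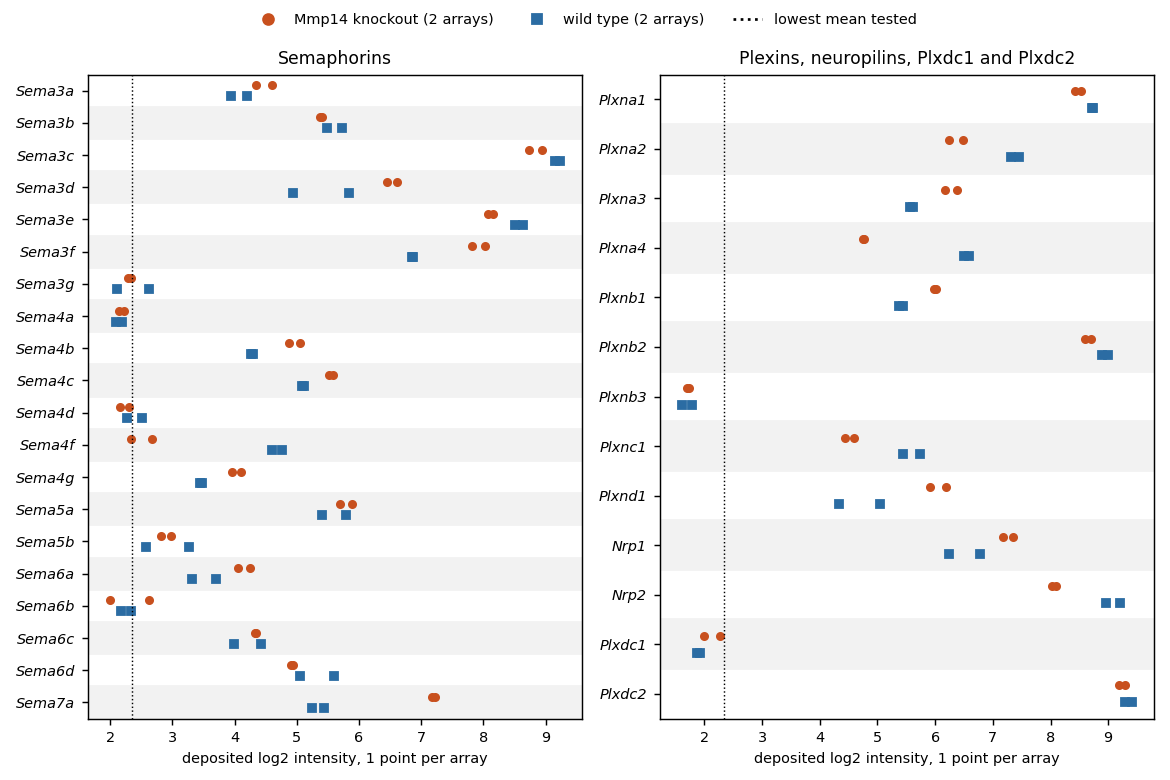
Deposited log2 intensity of each of the 33 genes on the horizontal axis, with 1 circle per Mmp14 knockout array and 1 square per wild-type array. The dotted line marks the lowest mean tested (2.34 log2), and for Sema7a, Sema4f and Plxna4 the knockout circles stand well apart from the wild-type squares.

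The count of genes called higher was 8 with all arrays and smaller with any 1 array left out. The count over all tested genes was smaller in each of these fits, too. Such fits have fewer residual degrees of freedom, so a lost call does not show that a result rested on 1 array. Without wild-type array 1, Nrp1, Sema3d and Sema6a joined the genes called higher, while others of the 8 lost the call. Without wild-type array 2, Sema3d joined them. Fits without 1 wild-type array leave the gap between the wild-type arrays out of the spread. The count called lower changed less, and without wild-type array 1 Sema6d took the place of Sema3e. With every probe set of the array in 1 fit, which drops the filter on dim genes, 1 gene (Sema7a) stayed higher and 2 (Sema4f and Plxna4) stayed lower. These 3 were called under every alternative in which they were tested.

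**Figure D2:**
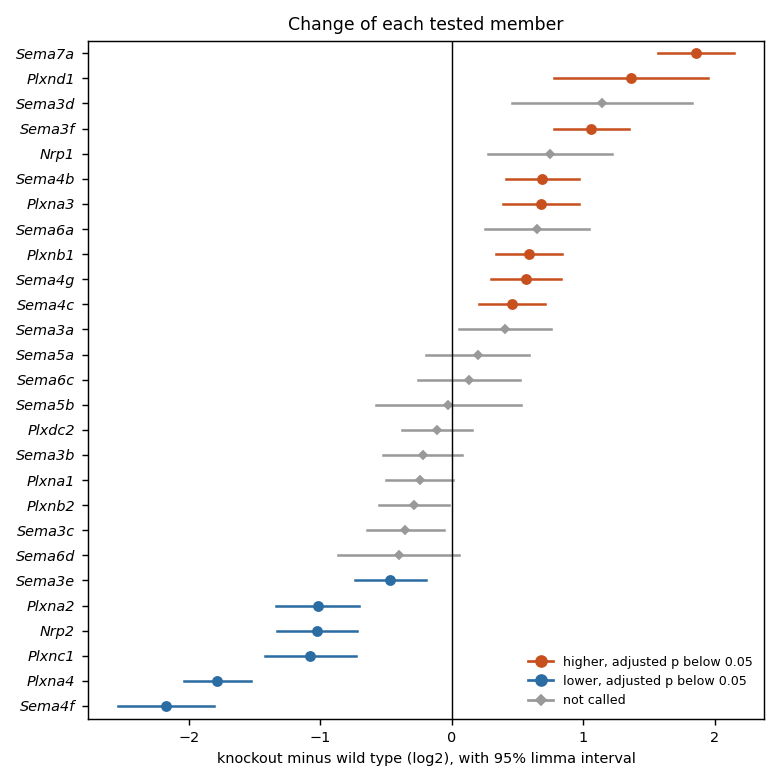
Knockout minus wild type (log2) for the 27 tested genes, ordered by size, with the 95% limma interval as a line (2 arrays per group). The values run from 1.86 for Sema7a to −2.17 for Sema4f, with genes not called in grey.

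Start-site sequences are shown for the 2 largest changes in each direction among the called genes that the RefSeq promoter table (GRCm38.p6) holds, because these genes carry the results described next: Sema7a and Plxnd1, which were higher in knockout, and Sema4f and Plxnc1, which were lower. Each runs 5′ to 3′ on its gene's strand, from 250 bases before the annotated start to 50 after it, and capitals mark GC boxes (GGGCGG on either strand).
Sema7a, chr9:57939862-57940161, plus strand: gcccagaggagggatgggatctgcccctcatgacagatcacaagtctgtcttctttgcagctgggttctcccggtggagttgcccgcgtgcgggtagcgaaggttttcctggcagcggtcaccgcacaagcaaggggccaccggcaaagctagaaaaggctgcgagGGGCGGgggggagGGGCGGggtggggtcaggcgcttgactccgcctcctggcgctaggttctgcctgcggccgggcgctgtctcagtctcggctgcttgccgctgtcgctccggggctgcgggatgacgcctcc
Plxnd1, chr6:115994956-115995255, minus strand: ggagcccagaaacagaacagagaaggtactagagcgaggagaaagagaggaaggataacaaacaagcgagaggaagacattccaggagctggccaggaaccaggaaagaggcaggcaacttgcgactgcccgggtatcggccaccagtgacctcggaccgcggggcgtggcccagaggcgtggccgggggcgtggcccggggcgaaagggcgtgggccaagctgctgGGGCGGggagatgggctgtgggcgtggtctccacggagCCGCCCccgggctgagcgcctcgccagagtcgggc
Sema4f, chr6:82939720-82940019, minus strand: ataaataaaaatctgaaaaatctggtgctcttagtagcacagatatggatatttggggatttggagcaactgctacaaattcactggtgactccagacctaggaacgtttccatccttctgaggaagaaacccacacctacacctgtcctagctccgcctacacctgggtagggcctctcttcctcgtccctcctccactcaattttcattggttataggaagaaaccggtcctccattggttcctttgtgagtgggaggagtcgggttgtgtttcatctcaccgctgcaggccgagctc
Plxnc1, chr10:94944796-94945095, minus strand: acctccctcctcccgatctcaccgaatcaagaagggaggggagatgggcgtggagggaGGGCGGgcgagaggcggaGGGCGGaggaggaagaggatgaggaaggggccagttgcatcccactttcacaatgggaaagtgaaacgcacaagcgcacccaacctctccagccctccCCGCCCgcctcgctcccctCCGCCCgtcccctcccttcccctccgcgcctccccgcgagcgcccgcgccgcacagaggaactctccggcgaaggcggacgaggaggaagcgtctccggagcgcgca
Sema7a and Plxnd1 had 2 GC boxes each, Plxnc1 had 4 and Sema4f had none, while 35.9% of the 32544 distinct promoters in the table held at least 1. GC content was 67.3% for Sema7a, 67.0% for Plxnd1, 48.7% for Sema4f and 69.0% for Plxnc1, against a median of 53.0% over all promoters. Among all 33 genes, 26 had an entry, and those of them that were not tested are left out of the counts below. The part of GC content in the GC box counts was not tested. With the first listed promoter of each, a GC box was found in 7 of 7 called higher, 4 of 5 called lower and 6 of 9 not called. TCF/LEF letters (CTTTGAT) were found in 0 of the 7, in 1 of the 5 (Nrp2) and in 0 of the 9, against 3.73% of all promoters. AP-1 letters (TGANTCA) were found in 1 of the 7 (Sema4c), in 0 of the 5 and in 0 of the 9, against 7.79% of all promoters. ETS letters (CGGAAGT) were in none of these promoters and in 6.46% of all. Both strands were searched, no matched stretch in the 4 printed promoters belonged to more than 1 motif, and a match describes letters only.

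Sema7a had the largest rise of the 27 genes. This lipid-anchored semaphorin binds beta 1 integrins and plexin C1. It had log2 intensities of 7.22 and 7.17 in knockout arrays, against 5.24 and 5.45 in wild-type arrays. Both knockout arrays lay above both wild-type arrays, and the replicates lay 0.05 log2 apart in knockout and 0.21 in wild type. The difference was 1.86 log2 (limma adjusted p = 0.00104, SE 0.117, 2 arrays per group), or 3.62-fold.

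Among the secreted class 3 semaphorins, Sema3f rose, Sema3e fell, and 4 of the 6 tested did not pass the test. Sema3f, which repels axons and vessel cells through neuropilin 2, had 8.02 and 7.82 log2 in knockout arrays, against 6.87 and 6.85 in wild-type arrays. The groups were separate, and the difference was 1.06 log2 (SE 0.115, limma adjusted p = 0.00438), or 2.09-fold. Sema3e, which binds plexin D1 without a neuropilin and patterns vessels in mice, had 8.07 and 8.15 log2 in knockout arrays and 8.65 and 8.51 in wild-type arrays. Its difference of −0.47 log2 (SE 0.109, limma adjusted p = 0.0476) was close to the threshold. That call was lost on leaving out wild-type array 1 (adjusted p = 0.123), wild-type array 2 (0.0735), knockout array 1 (0.223) or knockout array 2 (0.132), and also with quantile normalization (0.0546) or no filter on dim genes (0.0775).

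Sema3d had a larger difference than Sema3f but did not pass the test. It had 6.45 and 6.61 log2 in knockout arrays, against 5.83 and 4.94 in wild-type arrays, which lay 0.89 log2 apart, the widest replicate gap of the 27 genes. The difference was 1.14 log2 (95% interval 0.46 to 1.82, limma adjusted p = 0.0541). It passed without wild-type array 1 (1.59 log2, adjusted p = 0.0065) or wild-type array 2 (0.70 log2, 0.0485), fits that leave the gap between the wild-type arrays out of the spread and so lend the difference no support. It did not pass without knockout array 1 (0.0921) or knockout array 2 (0.116). Sema3a, the bone-protective ligand of neuropilin 1, had 4.60 and 4.35 log2 in knockout arrays, against 4.20 and 3.94 in wild-type arrays (difference 0.40, 95% interval 0.05 to 0.76, adjusted p = 0.136). Sema3c, which guides neural crest cells into the heart's outflow tract in mice, had a difference of −0.35 log2 (95% interval −0.64 to −0.06, adjusted p = 0.12). Sema3b had one of −0.22 (95% interval −0.52 to 0.08, adjusted p = 0.302). On chromosome 5 the RefSeq annotation of GRCm38.p6 places Sema3d next to Sema3a with no coding gene between, Sema3e 3 coding genes further and Sema3c another 15 beyond. In that order the differences were 1.14, 0.40, −0.47 and −0.35 log2. Sema3b and Sema3f, on chromosome 9 with 3 coding genes between them, had −0.22 and 1.06.

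All 4 tested class 4 semaphorins, which are membrane-spanning ligands, were called, 3 higher and 1 lower. Sema4f had the largest fall of the 27 genes. It had 2.34 and 2.68 log2 in knockout arrays, against 4.77 and 4.60 in wild-type arrays. The knockout signal lay near the level set for testing, so the size of the fall (−2.17 log2, SE 0.148, limma adjusted p = 0.0012, 4.51-fold) is uncertain although the groups were far apart.

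Sema4b had 5.06 and 4.88 log2 in knockout arrays, against 4.26 and 4.30 in wild-type arrays (difference 0.69, SE 0.113, limma adjusted p = 0.0163). Sema4g had 4.10 and 3.95 log2 in knockout arrays, against 3.44 and 3.48 in wild-type arrays (difference 0.57, SE 0.109, adjusted p = 0.0263). Sema4c, the ligand of plexin B2, had 5.52 and 5.59 log2 in knockout arrays, against 5.08 and 5.11 in wild-type arrays (difference 0.46, SE 0.102, adjusted p = 0.0419). None of these 3 had overlapping groups, and each kept its direction in every alternative in which it was tested. The differences ran from 0.59 to 0.78 log2 for Sema4b, 0.49 to 0.64 for Sema4g and 0.42 to 0.49 for Sema4c. Calls were lost on leaving out arrays, but those fits have fewer residual degrees of freedom. The lost calls therefore do not show that a difference rested on 1 array. Without knockout array 1 the adjusted p was 0.0903 for Sema4b, 0.148 for Sema4g and 0.148 for Sema4c. Without wild-type array 1 it was 0.052, 0.0721 and 0.101 for the same genes in that order. Sema4g and Sema4c were also not called without wild-type array 2 (0.0708 and 0.0976) or knockout array 2 (0.0605 and 0.187). Sema4c was not called, either, with arrays centred on their medians (0.0529) or with no filter on dim genes (0.0704).

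None of the 5 tested genes of classes 5 and 6 passed the test. Sema6a, a membrane ligand of plexins A2 and A4, came closest. It had 4.25 and 4.06 log2 in knockout arrays, against 3.71 and 3.31 in wild-type arrays (difference 0.65, 95% interval 0.25 to 1.04, limma adjusted p = 0.0561). The wild-type arrays lay 0.40 log2 apart. The Sema6a difference was 0.84 log2 without wild-type array 1 and 0.45 log2 without wild-type array 2. Sema6a was called in 3 of 12 alternatives. Sema6d had 4.93 and 4.91 log2 in knockout arrays, against 5.05 and 5.60 in wild-type arrays (difference −0.40, 95% interval −0.86 to 0.05, adjusted p = 0.23). The difference rested on wild-type array 2: it was −0.68 log2 without wild-type array 1 (adjusted p = 0.0367) and −0.13 without wild-type array 2 (0.575). It was not called without knockout array 1 (0.424) or knockout array 2 (0.412). Sema6c (0.13, 95% interval −0.26 to 0.52) and the thrombospondin-repeat semaphorins Sema5a (0.20, −0.19 to 0.59) and Sema5b (−0.03, −0.58 to 0.52) had overlapping groups, and each interval held 0.

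The receptors changed in both directions. Plxna4, which transmits Sema3a and Sema6a signals in mouse neurons, had the largest fall of the plexins. It had 4.77 and 4.75 log2 in knockout arrays, against 6.50 and 6.59 in wild-type arrays. The replicates of each group lay within 0.09 log2 of each other, and the difference was −1.78 log2 (SE 0.103, limma adjusted p = 0.000983), or 3.44-fold lower. The antisense transcript Plxna4os1 has a probe set of its own, with 2.34 and 2.15 log2 in knockout arrays and 2.06 and 2.05 in wild-type arrays, below the level set for testing.

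Plxna2, a receptor of Sema6a, also fell. It had 6.49 and 6.25 log2 in knockout arrays, against 7.32 and 7.46 in wild-type arrays (difference −1.02, SE 0.128, limma adjusted p = 0.0072). Plxnc1, the receptor of Sema7a, had 4.43 and 4.60 log2 in knockout arrays, against 5.74 and 5.44 in wild-type arrays (difference −1.08, SE 0.142, adjusted p = 0.00828). Both groups were separate for each of these genes, and each was about 2-fold lower (2.03-fold for Plxna2 and 2.11-fold for Plxnc1). In the fit of every probe set the adjusted p was 0.081 for Plxna2 and 0.0875 for Plxnc1.

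Plxnd1, the receptor of Sema3e, rose most among the plexins. It had 6.18 and 5.91 log2 in knockout arrays, against 4.33 and 5.03 in wild-type arrays. The groups were separate, although the wild-type arrays differed by 0.70 log2. The difference was 1.36 log2 (SE 0.239, limma adjusted p = 0.0205), with 1.71 without wild-type array 2 and 1.01 without wild-type array 1. Without knockout array 1 it was 1.22 and was not called (adjusted p = 0.0554).

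Plxna3, which acts with neuropilin 2 in Sema3f signalling, had 6.38 and 6.16 log2 in knockout arrays, against 5.61 and 5.57 in wild-type arrays (difference 0.68, SE 0.117, limma adjusted p = 0.0192). It is X-linked, and in the same arrays Xist differed by 0.73 log2, whose part in the result was not tested. The call of Plxna3 was lost without wild-type array 1 (adjusted p = 0.0504), wild-type array 2 (0.0658) or knockout array 1 (0.101). Plxnb1, the receptor of Sema4d, had 5.98 and 6.01 log2 in knockout arrays, against 5.44 and 5.38 in wild-type arrays (difference 0.59, SE 0.101, adjusted p = 0.0193). Its second, dimmer probe set had 2.97 and 2.71 log2 in knockout and 2.62 and 2.84 in wild type, a difference of 0.11, and the mean of both probe sets was not called (0.35, adjusted p = 0.0938). Plxnb1 lost its call, too, without wild-type array 2 (0.0656), knockout array 1 (0.0877) or knockout array 2 (0.0883).

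Plxna1 and Plxnb2 did not pass the test, and both had small negative differences. Plxna1, a common partner of neuropilins, had 8.53 and 8.43 log2 in knockout arrays, against 8.71 and 8.74 in wild-type arrays (difference −0.25, 95% interval −0.50 to 0.01, limma adjusted p = 0.193), with −0.16 at its second probe set. Plxnb2, the receptor of Sema4c, had 8.61 and 8.71 log2 in knockout arrays, against 8.90 and 8.99 in wild-type arrays (difference −0.29, 95% interval −0.55 to −0.02, adjusted p = 0.15).

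The neuropilins, co-receptors that hold class 3 semaphorins and also bind VEGF family ligands, differed in opposite directions, and Nrp2 alone passed the test. Nrp2, which binds Sema3f, had 8.09 and 8.02 log2 in knockout arrays, against 9.20 and 8.96 in wild-type arrays. The groups were separate, and the difference was −1.03 log2 (SE 0.123, limma adjusted p = 0.00621), or 2.04-fold lower. Nrp1, which binds Sema3a, had 7.34 and 7.17 log2 in knockout arrays, against 6.78 and 6.24 in wild-type arrays (difference 0.75, 95% interval 0.27 to 1.22, adjusted p = 0.0619). The wild-type arrays lay 0.55 log2 apart. The Nrp1 difference was 1.02 log2 without wild-type array 1 and 0.47 log2 without wild-type array 2. Nrp1 was called in 4 of 13 alternatives, among them the stricter filter on dim genes and the replicate block. Plxdc2, which shares a plexin-like domain but is not a plexin, had 9.29 and 9.19 log2 in knockout arrays, against 9.29 and 9.41 in wild-type arrays (difference −0.11, 95% interval −0.38 to 0.16, adjusted p = 0.567).

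**Figure D3:**
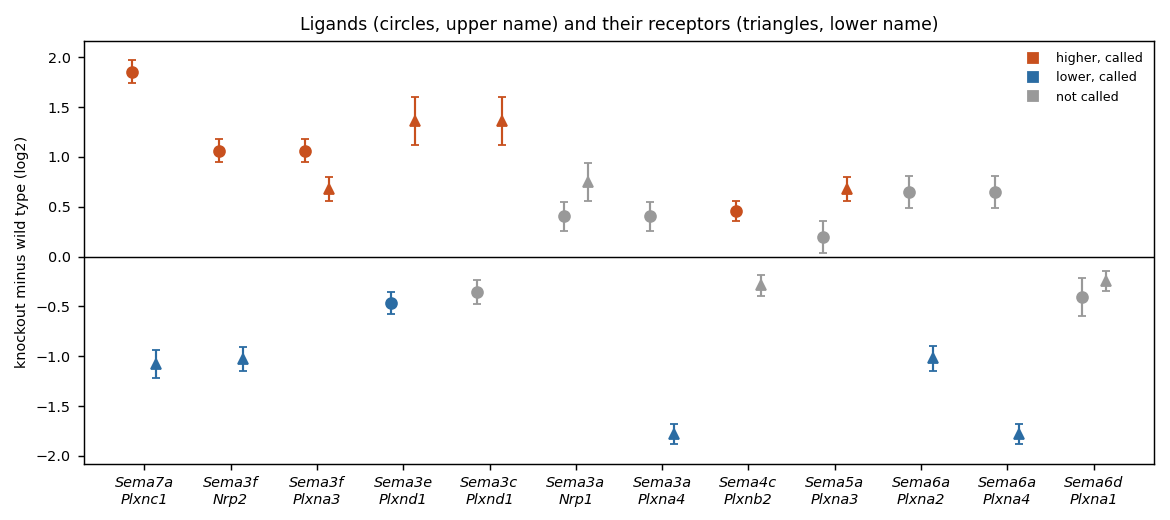
Knockout minus wild type (log2, vertical axis) for 12 known ligand and receptor pairs, with the ligand as a circle and the receptor as a triangle, and bars of 1 SE from limma (2 arrays per group). In 4 pairs both genes were called, 3 of them in opposite directions, such as Sema7a (1.86) and Plxnc1 (−1.08). The Sema3e call was close to the threshold, and 51.9% of the 27 tested genes were called.

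Known ligand and receptor pairs were set side by side, with the pairs chosen from general knowledge after the values had been seen. In 4 of the 12 pairs both genes passed the test. Of the 27 tested genes 51.9% were called, 8 higher and 6 lower, so these counts are given only as a description. Sema7a was higher and its receptor Plxnc1 lower, Sema3f was higher and its co-receptor Nrp2 lower, and Sema3e was lower and its receptor Plxnd1 higher. The Sema3e call was close to the threshold and held in 5 of 13 alternatives. Sema3f and the plexin Plxna3 were both higher. Several pairs share a gene, so the pairs are not independent, and no test was made of the directions.

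Dim genes accounted for the other 6: Sema3g, Sema4a, Sema4d, Sema6b, Plxnb3 and Plxdc1. Their log2 intensities ran from 1.70 to 2.62 in knockout arrays and from 1.61 to 2.62 in wild-type arrays, close to the array medians of 2.37 and 2.36 in knockout and 2.32 and 2.36 in wild type. Sema4d had 2.15 and 2.31 log2 in knockout arrays, against 2.27 and 2.51 in wild-type arrays, and the groups overlapped. Differences of these 6 genes lay between −0.16 and 0.24 log2 and were not tested. Signal this low says little about whether these genes were expressed.

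**Figure D4:**
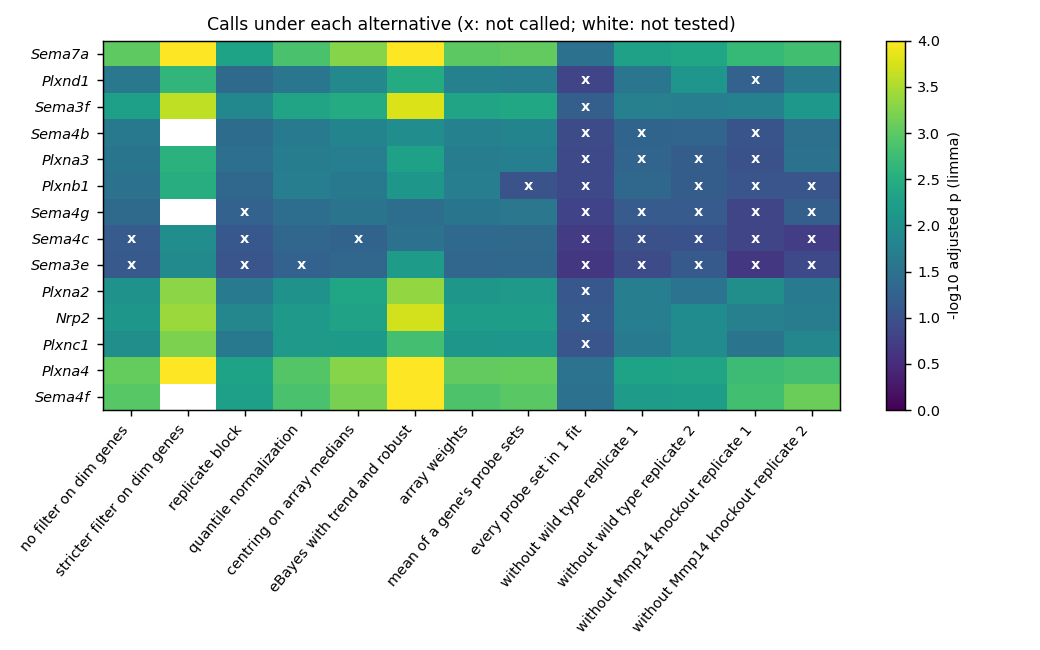
The −log10 of the limma adjusted p for each of the 14 called genes (rows, largest rise at the top) under 13 alternatives (columns), with x where a gene was not called and white where it was not tested. Sema7a, Plxna4 and Sema4f have no x, and 4 genes have 1.

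Genes that work with these ligands and receptors were counted from 4 lists. Among 10 tested neuropilin co-ligands and co-receptors, 2 were higher, 1 was lower and 7 were not called (median 0.20 log2, against −0.0041 for all tested genes). Over all tested genes 6.2% were higher and 5.12% lower, and with 10 genes the counts are given as a description. Hgf, the ligand of the Met receptor that associates with plexin B1, had 6.76 and 6.46 log2 in knockout arrays, against 4.71 and 4.68 in wild-type arrays (difference 1.92, SE 0.133, limma adjusted p = 0.00125). L1cam, an adhesion molecule that joins Nrp1 in Sema3a receptors, had 6.23 and 6.06 log2 in knockout arrays, against 4.24 and 4.37 in wild-type arrays (difference 1.84, SE 0.117, adjusted p = 0.00104). Both knockout arrays lay above both wild-type arrays for each. The lymphatic growth factor gene Vegfd was lower (−0.48, adjusted p = 0.0451), but not without wild-type array 1, wild-type array 2, knockout array 1 or knockout array 2 (adjusted p = 0.096 to 0.204). L1cam and Vegfd are X-linked, and the part of the Xist difference (0.73 log2) in their values was not tested. Met itself (0.68, adjusted p = 0.0595) and Vegfa (−0.35, adjusted p = 0.118) were not called.

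In the list of plexin cytoplasmic signalling, 1 of 33 tested genes was higher, 4 were lower and 28 were not called (median 0.0027 log2). These 5 of 33 are close to the 11.3% called over all tested genes, so the count is not a result about the list, and the called genes are given for their own values. Rras2, a relative of the R-Ras GTPases on which plexins act, had 6.15 and 6.22 log2 in knockout arrays, against 7.27 and 7.26 in wild-type arrays (difference −1.08, SE 0.101, limma adjusted p = 0.00283). Mical2, of the MICAL family of actin-oxidising enzymes, had 7.14 and 7.13 log2 in knockout arrays, against 8.16 and 8.07 in wild-type arrays (difference −0.98, SE 0.102, adjusted p = 0.00409). Limk2, a kinase that inactivates the actin-severing protein cofilin, was lower (−0.94, adjusted p = 0.035), but not without wild-type array 1 (0.07), wild-type array 2 (0.111) or knockout array 1 (0.0768). The small GTPase gene Rnd1 (−0.49, adjusted p = 0.0334) was also lower, but not without wild-type array 1 (0.0731), wild-type array 2 (0.0929), knockout array 1 (0.139) or knockout array 2 (0.148). Farp1, a RhoGTPase exchange factor, was higher (0.61, adjusted p = 0.0221), but not without wild-type array 2 (0.072), knockout array 1 (0.0887) or knockout array 2 (0.0889). The collapsin response mediator gene Dpysl3 (0.38, adjusted p = 0.0629) and the RhoA activators of plexin B, Arhgef11 (0.20) and Arhgef12 (0.27), were not called.

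None of the 4 tested genes among other semaphorin receptors and plexin partners was called, among them the Sema7a receptor subunit genes Itgb1 (−0.04) and Itga1 (0.04) (limma fit over all tested genes). Of 7 proteases that process semaphorins only Mmp14, the targeted gene, was called. With 11.3% of all tested genes called, lists this small may hold few or no calls. Neither count is a result about its list. Furin, which cleaves class 3 semaphorins, had a difference of −0.19 (adjusted p = 0.3), and the sheddase genes Adam10 and Adam17 had 0.09 and 0.31 (adjusted p = 0.616 and 0.192).

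**Figure D5:**
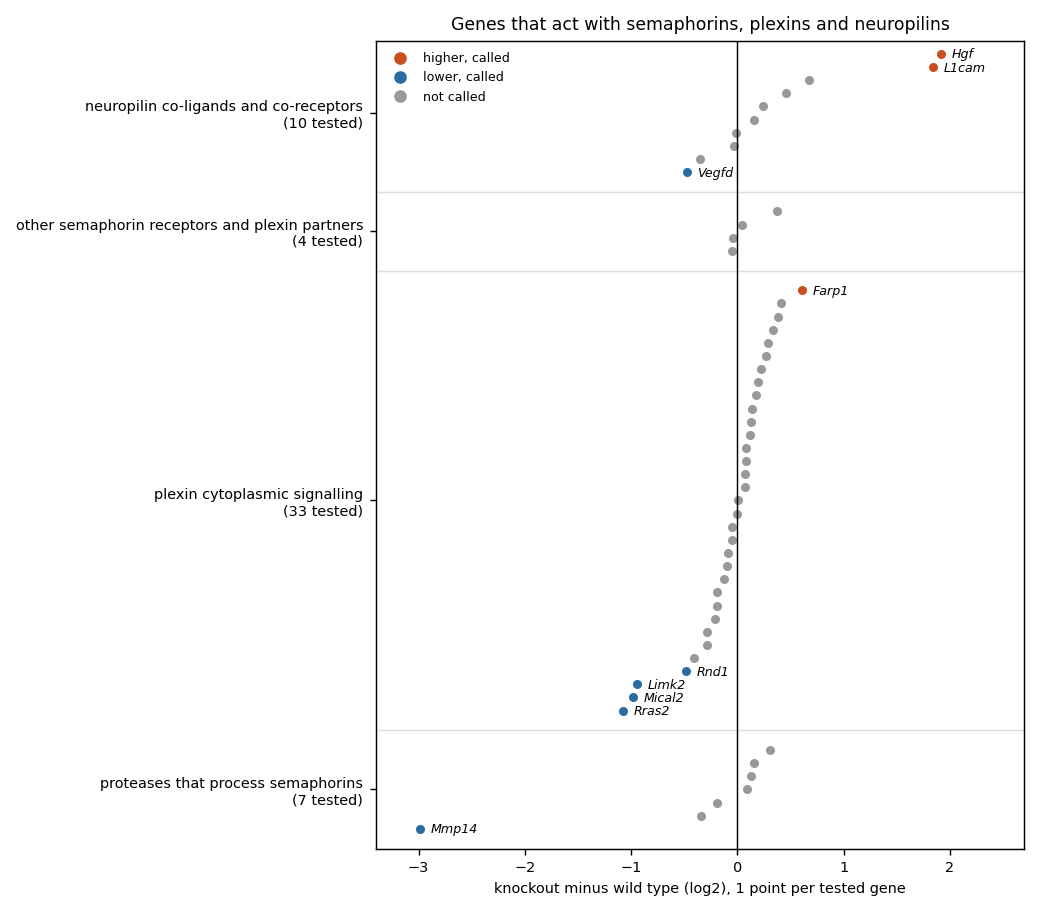
Knockout minus wild type (log2, horizontal axis) for each tested gene of the 4 lists, 1 point per gene, with called genes named. Hgf (1.92) and L1cam (1.84) lie farthest right, and the 33 signalling genes centre near 0.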

How the data were processed

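Per the labels' protocols, cDNA was amplified from 10 ng of total RNA, and a biotin label was put on 3.75 µg of it. The deposited values were log2 intensities of 41345 probe sets on 4 Affymetrix arrays. The submitters' processing notes name oligo and limma, and the normalization is not given in the sources used here. Arrays have no read depth, and their number limits the precision. Symbols came from the platform annotation: 23521 probe sets had 1 symbol and 1814 several. Each gene was represented by its brightest probe set, and a gene was tested if its mean reached 2.34 log2, the median over all probe sets.

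Knockout was compared with wild type by limma 3.58.1 in R 4.3.3, with moderated two-sided tests, 2 residual degrees of freedom and Benjamini-Hochberg adjustment over 12708 genes. Arrays with the same replicate number deviated from their group means with a correlation of −0.04 and were not treated as pairs. The procedure was tested on simulated data with independent arrays and spreads drawn from the limma fit. That test cannot show how the calls hold if replicates are technical or arrays share a batch. The genes, the gene lists and the tests were chosen with earlier results of these data known. All 33 genes are named, with Mmp14 and up to 6 called genes of each list. Array levels of different genes were not compared. Alternatives covered the filter, quantile normalization, centring, a replicate block, trended robust variance, array weights, probe set means, a single fit of every probe set, leaving out each array, and adjusted p thresholds of 0.1 and 0.01.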

Additional observations from a re-analysis of the deposited data

How the results depend on the processing

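Of 344 values of single semaphorin, plexin and neuropilin genes under alternatives, 341 kept their direction, 40 lost a call and 15 gained one. The 3 that changed sign belonged to genes not called: Sema5b, with −0.37 to 0.31 log2 on leaving out single arrays, and Sema6c, with −0.086 to 0.34. Of the 14 called genes, 3 were called under every alternative in which they were tested, 4 lost the call only with every probe set in 1 fit and 7 lost it in more than 1 alternative. With every probe set in 1 fit, 218 probe sets were called, with 1 gene of this family higher and 2 lower. Leaving out single arrays gave 687 to 1131 called genes over all tested, with 2 to 7 of this family higher and 5 to 6 lower; the lone array left in a group is then assumed to vary like the other group. At an adjusted p below 0.1, 2365 genes were called over all tested, and below 0.01 there were 459, with 2 of this family higher. The replicate number as a block gave 1057 calls over all genes, 8 higher and 5 lower in the family, with Sema3e, Sema4c and Sema4g no longer called and Nrp1 and Sema6a called. The stricter filter left out the dimmer genes, among them Sema4f, Sema4b and Sema4g. With it 1644 of 7583 genes were called over all tested, a larger share than the 11.3% of the main fit. Of this family 20 were tested, with 8 called higher and 5 lower. The cause of these changes was not tested, and signal near the array medians limits what can be said of the dim genes.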
